A study of Mus musculus with 12 samples.

Results

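The genes whose symbols begin with Nop, Nol, Utp or Exosc, followed by a number, were followed in cultured mouse microglia given amyloid-β and an agonist of a prostaglandin receptor. A probe set counted when its only gene symbol in the annotation of the array had that form. Of 35556 probe sets, 40 did, and they covered 37 of the 19938 genes measured. Where a gene had more than 1 such probe set, which held for Nol4 with 3 and Exosc3 with 2, the one that read highest on average across the 12 arrays was kept. That mean decided nothing else, but the families were put forward with results of these data in view. By the roles of their products the 37 genes fell into 3 core proteins of small nucleolar ribonucleoproteins (snoRNPs), 16 factors of small-subunit assembly, 6 factors of large-subunit assembly, 9 subunits of the RNA exosome, and 3 genes, Nol3, Nol4 and Nol4l, that share only the name.

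Ribosomes are built in the nucleolus. RNA polymerase I transcribes a long precursor RNA, snoRNPs guide the modification of its bases and riboses, and a large particle, the small-subunit processome, folds and cuts it. Separate factors then build the large subunit, and the RNA exosome, a barrel of inactive ring subunits closed by a cap of RNA-binding subunits and fitted with exonucleases, trims precursor RNA and degrades the pieces that were cut out, besides its work in the turnover of other RNAs. The genes of these factors are often regulated together in cells that change their growth, and the transcription factor MYC is a well-known activator of many of them. In macrophages, to which microglia belong, prostaglandin E2 acts through the EP4 receptor, which couples to cyclic AMP and is best known there for restraining inflammatory gene expression.

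The cells were primary microglia of C57BL/6J pups, taken on postnatal day 7 with beads that bind CD11b, a surface protein of microglia and other myeloid cells, and kept in culture for 3 days. Treatment lasted 6 h and gave 4 groups of 3 arrays: Aβ42 oligomers at 10 µM, the EP4 agonist AE1-329 at 100 nM, both, or only the vehicles, which were DMSO at 0.4% and ethanol at 0.001%. The labels also give ethanol vehicle at 0.001% for the Aβ42 arrays and DMSO vehicle at 0.4% for the AE1-329 arrays. They list no separate vehicle for the arrays with both agents. Each replicate number stood for cells of a separate litter, so litter differences are shared by the same-numbered arrays of the 4 groups. The cells came from young animals and were treated in culture, outside the brain. Levels are log2 expression values on Affymetrix Mouse Gene 1.0 ST arrays, and a change is a log2 difference between group means ± the standard error of a limma fit to all 12 arrays, with p adjusted over all 19938 genes and a threshold of 0.05.

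Array medians lay between 6.97 and 7.05. All 11 microglial markers measured lay above the array median on every vehicle array, against 1 of 8 astrocyte, 4 of 8 oligodendrocyte-lineage, 1 of 8 neuronal and 2 of 8 endothelial markers. The mean level of 9 proliferation markers ran from 9.95 to 10.10 with vehicle, from 9.69 to 9.88 with AE1-329, from 9.44 to 9.72 with Aβ42 and from 9.56 to 9.83 with both. With Aβ42, 7 of the 9 passed as lower, against 14.8% of all genes. With AE1-329 alone 2 of the 9, Pcna and Mcm2, passed as lower, against 5.45% of all genes. The part of these markers in the results below was not tested. Vehicle replicate 1 stood apart from the other vehicle arrays for Nol8, Utp3, Exosc1, Nop9, Exosc4 and Exosc5. On bulk arrays, less RNA of a gene per cell and fewer cells that express it cannot be told apart.

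Aβ42 alone raised 17 of the 37 genes and lowered none that passed, in a comparison in which 25.6% of all genes passed, 10.7% as higher. Without adjustment 1 gene, Exosc8, was lower at p under 0.05. The median change of the 37 was 0.17, against 0.02 over all genes. AE1-329 alone lowered 18 of the 37 and raised none that passed, where 10.2% of all genes passed, 5.45% as lower and 4.71% as higher. The median was -0.23, against -0.01 over all genes, and without adjustment 2 genes, Nop53 and Nol4, were higher at p under 0.05. A fit restricted to the arrays of those groups called 10 rather than 18 of them, without Utp4, Utp11, Utp18, Utp25, Nol9, Exosc2, Exosc7 and Exosc10 (adjusted p from 0.0751 to 0.187). The shares of all genes, here and below, are not matched to the 37 by level. On the vehicle arrays the mean level was 8.73 to 8.84 for the 37 and 7.59 to 7.64 for all genes. With only genes above the median level, Aβ42 alone called 4728 genes in place of 5100, and AE1-329 alone 2298 in place of 2026. Whether the 37 differ from genes of like level in their share of calls was not tested.

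When AE1-329 was added to Aβ42, 21 of the 37 fell and 1, Nol4l, rose against Aβ42 alone, while 11.0% of all genes passed, 5.04% as lower and 5.99% as higher. The median was -0.29, against -0.02. When Aβ42 was added to AE1-329, 15 rose and 3 fell against AE1-329 alone. Of all genes 22.0% passed, 9.77% as higher and 12.2% as lower, so falls were no more frequent among the 37 than among all genes. The median was 0.16 against 0.01. The number that fell was 1 in place of 3 when any AE1-329 array, any Aβ42 array or replicate 1 of both agents was left out. With both agents against vehicle, a comparison added after the values were seen, 2 genes were higher and 8 lower, where 21.2% of all genes passed, 9.27% as higher and 11.9% as lower. Without vehicle replicate 1 those counts were 4 and 14.

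Array by array, the median of the 37 genes, each set against its own vehicle mean, lay between -0.05 and 0.07 in the vehicle arrays. It lay between -0.25 and -0.20 with AE1-329, between 0.16 and 0.19 with Aβ42, and between -0.11 and -0.06 with both. The arrays with both agents lay between those with AE1-329 and those with vehicle. No groups overlapped in this median, but vehicle and both agents nearly met, at -0.0517 in vehicle replicate 2 and -0.0560 in replicate 3 of both agents. The vehicle arrays lie around 0 by construction, since each gene is set against its own vehicle mean.

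**Figure D1:**
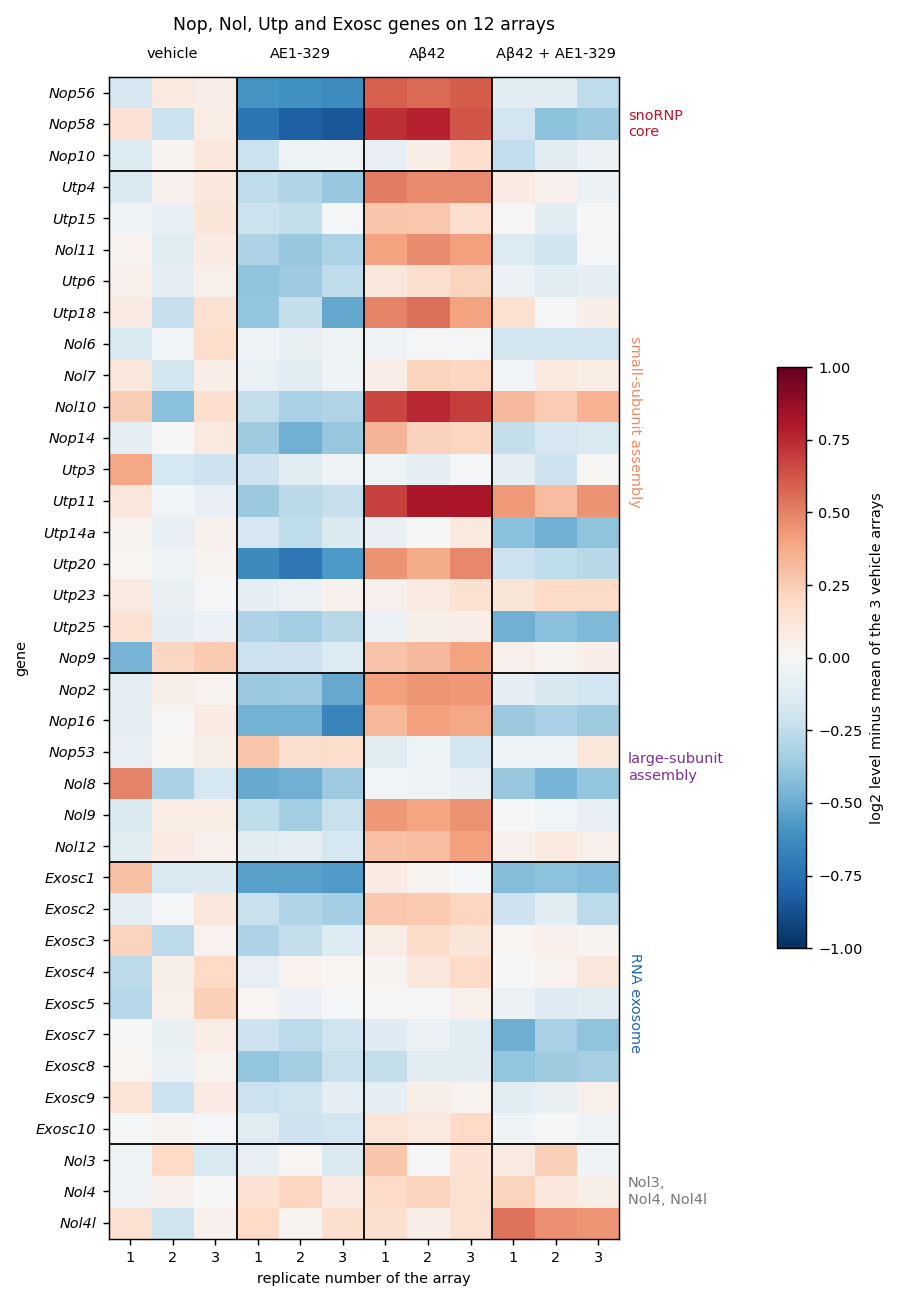
Each row is a gene and each column an array, grouped by treatment, with the gene groups marked at the right; colour gives the log2 level minus the mean of the 3 vehicle arrays, on a scale cut at -1 and 1. Nop56, Nop58 and Utp20 are blue on all AE1-329 arrays and red on all Aβ42 arrays, while most of the exosome block is blue with AE1-329 and pale with Aβ42, and Exosc4 and Exosc5 are pale in both.

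Promoter sequence was available for 28 of the 37 genes in a RefSeq table of mouse build GRCm38.p6, as windows of 300 bases that run from 250 bases before to 50 bases from the start of transcription on. The letters CACGTG, the E-box that MYC with its partner MAX is known to bind, read alike on both strands and occurred in the windows of 7 of the 28 genes, which is 25.0%, against 8.09% of 27025 genes. They were Nop2, Nol11, Utp18, Utp4, Utp20, Utp25 and Exosc5. The 27025 genes are all those with a window, whether or not they were measured or expressed here. They were not matched to the 28 by level, so the 2 shares do not show that the letters are particular to these families. The letters TGACGTCA, the full cyclic AMP response element, are also a palindrome and hold the same central ACGT as the E-box. They occurred in 0 of the 28 windows and in 2.03% of all genes. Letters this rare can easily be missing from 28 windows, so the 0 does not set these genes apart. The shorter TGACGT was not searched for, and it stands in the Utp18 and Nop58 stretches below. A match in a window is a description of the sequence and not a measured binding site. Utp25 has 3 windows, with the E-box 245 bases before the start in 1 and after it in the other two. The upstream stretches below show the 4 genes with 1 window and an E-box before its start, of which 3 moved with the treatments and Exosc5 did not pass in any comparison, and then the 2 snoRNP genes with the largest falls when AE1-329 was added to Aβ42, whose windows do not hold these letters. They are chr6:125131633-125131882 on the plus strand for Nop2, chr11:107189382-107189631 on the minus strand for Nol11, chr11:93885767-93886016 on the minus strand for Utp18 and chr7:25658903-25659152 on the plus strand for Exosc5. For Nop56, chr2:130274162-130274366, and Nop58, chr1:59684756-59684960, both on the plus strand, the stretch ends before the first start RefSeq gives. All are written 5′ to 3′ on the strand of the gene, with the E-box in capitals.
Nop2: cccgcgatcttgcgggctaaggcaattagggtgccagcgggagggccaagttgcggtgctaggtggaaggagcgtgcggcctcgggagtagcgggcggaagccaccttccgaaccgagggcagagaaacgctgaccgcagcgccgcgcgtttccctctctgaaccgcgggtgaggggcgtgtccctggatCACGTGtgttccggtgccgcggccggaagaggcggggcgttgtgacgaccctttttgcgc
Nol11: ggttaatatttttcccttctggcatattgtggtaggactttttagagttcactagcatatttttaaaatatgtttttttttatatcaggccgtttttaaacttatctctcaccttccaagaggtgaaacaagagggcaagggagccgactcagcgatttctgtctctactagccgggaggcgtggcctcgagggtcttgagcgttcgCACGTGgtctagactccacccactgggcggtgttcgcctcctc
Utp18: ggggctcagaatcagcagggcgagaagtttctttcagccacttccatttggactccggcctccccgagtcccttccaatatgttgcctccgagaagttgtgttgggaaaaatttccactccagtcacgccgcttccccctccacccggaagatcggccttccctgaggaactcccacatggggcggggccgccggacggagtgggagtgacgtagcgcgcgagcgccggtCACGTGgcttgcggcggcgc
Exosc5: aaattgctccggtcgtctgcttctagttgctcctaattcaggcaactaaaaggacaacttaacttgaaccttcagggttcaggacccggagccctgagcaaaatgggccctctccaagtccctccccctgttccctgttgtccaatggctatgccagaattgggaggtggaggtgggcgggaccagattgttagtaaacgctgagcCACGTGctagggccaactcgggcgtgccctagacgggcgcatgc
Nop56: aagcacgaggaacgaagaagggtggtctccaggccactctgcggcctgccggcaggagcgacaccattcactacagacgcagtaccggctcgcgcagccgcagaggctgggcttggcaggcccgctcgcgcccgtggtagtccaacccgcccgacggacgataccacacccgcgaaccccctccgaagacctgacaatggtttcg
Nop58: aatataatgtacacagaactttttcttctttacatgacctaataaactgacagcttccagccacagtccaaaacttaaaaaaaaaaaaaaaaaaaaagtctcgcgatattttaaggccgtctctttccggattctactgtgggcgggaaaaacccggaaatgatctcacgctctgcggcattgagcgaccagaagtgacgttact
The E-box begins 60 bases before the start of Nop2, 43 before Nol11, 44 before Exosc5 and 20 before Utp18. Of the 7 genes with the letters, 6 fell with AE1-329 added to Aβ42, all but Exosc5, and of the 21 without them 13 fell and 1 rose. With Aβ42 alone 5 of the 7 and 10 of the 21 rose. The 2 sets were not tested against each other.

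Nop56 and Nop58 form the paired scaffold of box C/D snoRNPs, on which fibrillarin methylates ribosomal RNA, and they had the largest falls among the 37 genes when AE1-329 was added to Aβ42. Nop58 read 8.10, 7.74 and 8.02 with vehicle, 7.23, 7.14 and 7.11 with AE1-329, 8.68, 8.72 and 8.58 with Aβ42, and 7.76, 7.55 and 7.58 with both. The AE1-329 arrays were all lower and the Aβ42 arrays all higher than any other array, and the arrays with both overlapped with vehicle through vehicle replicate 2. Nop58 rose by 0.71 ± 0.09 with Aβ42 (adjusted p = 4.61e-05). It fell by 0.79 ± 0.09 with AE1-329 alone (8.43e-05) and by 1.03 ± 0.09 when AE1-329 was added to Aβ42 (8.24e-06), the only change of 2-fold or more among the calls of the 37 genes in the 6 comparisons. It rose by 0.47 ± 0.09 when Aβ42 was added to AE1-329 (0.00159). With both agents it was 0.32 ± 0.09 below vehicle (adjusted p = 0.0198), a call that was lost without vehicle replicate 1 (0.0726), vehicle replicate 3 (0.0667), or replicate 2 (0.0835) or 3 (0.0719) of both agents.

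Nop56 followed the same order of groups. Its values were 9.88, 10.15 and 10.12 with vehicle, 9.47, 9.45 and 9.43 with AE1-329, 10.65, 10.62 and 10.66 with Aβ42, and 9.95, 9.94 and 9.80 with both. No AE1-329 array reached any other array, no array of another group reached those with Aβ42, and both agents together overlapped with vehicle. Nop56 rose by 0.59 ± 0.07 with Aβ42 (3.06e-05) and by 0.45 ± 0.07 when Aβ42 met AE1-329 (0.000383). It fell by 0.61 ± 0.07 with AE1-329 alone (0.000115) and by 0.75 ± 0.07 when AE1-329 was added to Aβ42 (1.88e-05). Against vehicle both agents together gave -0.16, with a 95% interval from -0.31 to -0.0033, which did not pass (adjusted p = 0.159) unless vehicle replicate 1 was left out (-0.24, 0.00604).

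Nop10, a small protein of the other snoRNP class, the box H/ACA particles that guide pseudouridylation, did not pass in any of the comparisons. Its changes ran from -0.19 ± 0.08 for AE1-329 added to Aβ42 to 0.05 ± 0.08 for Aβ42 alone. In each litter the array with both agents lay below the array with Aβ42, at 9.95 against 10.12, 10.09 against 10.27 and 10.15 against 10.37, and with the litter in the fit as a replicate block this fall passed (adjusted p = 0.0177 against 0.217 without the block). Fibrillarin itself, Fbl, was not raised by Aβ42 beyond its error (0.04 ± 0.07) and fell with AE1-329 alone (-0.44 ± 0.07, adjusted p = 0.00131). Dkc1, the pseudouridine synthase that works beside Nop10, fell by 1.05 ± 0.14 with AE1-329 alone (0.000296) and by 0.73 ± 0.14 when it was added to Aβ42 (0.00381).

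Among the 16 factors of small-subunit assembly, 8 rose with Aβ42, 8 fell with AE1-329 alone, 10 fell when AE1-329 was added to Aβ42, and 9 rose and 1 fell when Aβ42 was added to AE1-329. Their median changes were 0.25, -0.29, -0.39 and 0.22 in that order. Of all genes, 10.7% rose, 5.45% fell, 5.04% fell, and 9.77% rose and 12.2% fell in the same order of comparisons. Utp20, a very long repeat protein of the processome, passed in all 4 of these comparisons. It read 8.65, 8.58 and 8.66 with vehicle, 7.99, 7.91 and 8.06 with AE1-329, 9.07, 9.0001 and 9.11 with Aβ42, and 8.42, 8.38 and 8.35 with both. None of the 4 groups overlapped with another. Utp20 rose by 0.43 ± 0.05 with Aβ42 (4.89e-05) and fell by 0.64 ± 0.05 with AE1-329 alone (7.99e-06). It fell by 0.68 ± 0.05 when AE1-329 was added to Aβ42 (4.73e-06) and rose by 0.40 ± 0.05 when Aβ42 was added to AE1-329 (0.00013). With both it was 0.25 ± 0.05 below vehicle (0.00504).

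Utp11, another processome component, had the largest rise with Aβ42. It read 8.60, 8.46 and 8.40 with vehicle, 8.11, 8.22 and 8.26 with AE1-329, 9.17, 9.30 and 9.30 with Aβ42, and 8.91, 8.79 and 8.93 with both. Here the arrays with both agents lay above every vehicle array, in contrast to Utp20. The rise was 0.77 ± 0.07 with Aβ42 alone (2.16e-06) and 0.68 ± 0.07 in the presence of AE1-329 (7.85e-06), and 0.39 ± 0.07 remained with both agents against vehicle (0.000965). AE1-329 added to Aβ42 lowered Utp11 by 0.38 ± 0.07 (0.00304), and AE1-329 alone lowered it by 0.29 ± 0.07 (0.0173), a call lost without AE1-329 replicate 1 (0.0833).

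Nol10 is a nucleolar protein of the early processome. It read 7.23, 6.56 and 7.15 with vehicle, 6.75, 6.65 and 6.68 with AE1-329, 7.65, 7.73 and 7.67 with Aβ42, and 7.31, 7.23 and 7.33 with both. Vehicle replicate 2 was the lowest of all 12 arrays. The rises with Aβ42 were 0.70 ± 0.13 without (0.00101) and 0.59 ± 0.13 with AE1-329 (0.00406), and its groups did not overlap in either. The falls with AE1-329, of 0.29 ± 0.13 without and 0.40 ± 0.13 with Aβ42, did not pass (adjusted p = 0.222 and 0.0729). Without vehicle replicate 2 both passed, at -0.49 (0.000256) and -0.40 (0.000413), and the second also passed without vehicle replicate 1 (0.0361) and with the replicate block (0.0410).

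Utp4, Utp15 and Nol11 belong to the subcomplex that joins the nascent precursor first and that is also needed for its transcription. Utp4 rose by 0.49 ± 0.07 with Aβ42 (0.000125) and by 0.34 ± 0.07 when Aβ42 was added to AE1-329 (0.0027). It fell by 0.46 ± 0.07 when AE1-329 was added to Aβ42 (0.000634) and by 0.31 ± 0.07 with AE1-329 alone (0.0102), the latter not without AE1-329 replicate 3 (0.0521). Nol11 read 9.41, 9.25 and 9.46 with vehicle, 9.06, 8.99 and 9.05 with AE1-329, 9.78, 9.84 and 9.78 with Aβ42, and 9.24, 9.17 and 9.36 with both. Its rise with Aβ42 was 0.43 ± 0.07 (0.000272) and its fall when AE1-329 was added was 0.54 ± 0.07 (0.000142), and in both the groups stood apart. Utp15 moved less, with a rise of 0.24 ± 0.07 (0.0297) and a fall of 0.27 ± 0.07 (0.0319) in the same comparisons. The rise of Utp15 was lost without replicate 1 or 2 of vehicle (0.0698 and 0.0921) or of Aβ42 (0.101 and 0.0935). Its fall was lost without those Aβ42 arrays (0.116 and 0.110) or without replicate 1, 2 or 3 of both agents (0.0629, 0.125 and 0.0674).

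Utp6 and Utp18 sit in the subcomplex that follows. Utp18 read 8.22, 7.91 and 8.29 with vehicle, 7.75, 7.90 and 7.63 with AE1-329, 8.63, 8.69 and 8.54 with Aβ42, and 8.29, 8.13 and 8.21 with both. Vehicle replicate 2 nearly met AE1-329 replicate 2, and the Aβ42 arrays were the highest throughout. Utp18 rose by 0.48 ± 0.10 with Aβ42 (0.00219) and by 0.45 ± 0.10 on top of AE1-329 (0.00439). Its fall with AE1-329 alone, of 0.38 ± 0.10 (0.0261), was lost without vehicle replicate 1 (0.0782) or 3 (0.0840) and without AE1-329 replicate 1 (0.0808) or 3 (0.118). Utp6 fell by 0.34 ± 0.06 with AE1-329 alone (0.00261) and rose by 0.25 ± 0.06 when Aβ42 was added to it (0.00781). With Aβ42 alone Utp6 missed the threshold at 0.17 ± 0.06 (0.0599) and passed with the replicate block (0.0442) or without vehicle replicate 1 (0.0421).

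Utp14a and Utp25 departed from that order, since Aβ42 alone left them near vehicle. Utp14a, which activates an RNA helicase late in processome disassembly, read 8.13, 8.02 and 8.14 with vehicle, 7.93, 7.84 and 7.96 with AE1-329, 8.02, 8.10 and 8.19 with Aβ42, and 7.68, 7.61 and 7.69 with both. The arrays with both agents were below all others. Utp14a changed by 0.01 ± 0.06 with Aβ42 alone and fell by 0.44 ± 0.06 when AE1-329 was added (0.000375), by 0.25 ± 0.06 when Aβ42 was added to AE1-329 (0.00900) and by 0.44 ± 0.06 with both against vehicle (0.000132). Its change with AE1-329 alone was -0.19 ± 0.06 and passed only with the replicate block (0.0395), among genes above the median level (0.0374) or without vehicle replicate 2 (0.0446), of the 19 alternatives run. Utp25, which resembles a helicase and works in the same particle, changed by 0.02 ± 0.07 with Aβ42 and fell by 0.31 ± 0.07 with AE1-329 alone (0.00956, or 0.0751 with only the arrays of those groups in the fit), by 0.47 ± 0.07 when it was added to Aβ42 (0.000481) and by 0.45 ± 0.07 with both against vehicle (0.000257). Neither gene passed for the interaction of the agents (-0.25 ± 0.09, adjusted p = 0.229 for Utp14a, and -0.16 ± 0.10, 0.667 for Utp25), so a difference in their response to AE1-329 with and without Aβ42 was not shown.

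Nop14, a scaffold of the processome, followed the larger set, with 0.26 ± 0.06 for Aβ42 (0.00732), -0.40 ± 0.06 for AE1-329 alone (0.00114) and -0.45 ± 0.06 for AE1-329 on Aβ42 (0.000466). Nop9 rose from 8.42, 8.43 and 8.50 with AE1-329 to 8.68, 8.66 and 8.70 with both and stood at 8.92, 8.96 and 9.03 with Aβ42, but its vehicle values were 8.17, 8.84 and 8.90 and it did not pass in any comparison. Without vehicle replicate 1 it passed as lower with AE1-329 alone (-0.42, 0.000324), as lower when AE1-329 was added to Aβ42 (-0.29, 0.00127), as higher when Aβ42 was added to AE1-329 (0.23, 0.00236) and as lower with both against vehicle (-0.19, 0.0202). For Aβ42 alone it passed without vehicle replicate 2 (0.44, 0.0472) or 3 (0.47, 0.0276). Both of these rises rest on vehicle replicate 1, at 8.17. Vehicle replicates 2 and 3, at 8.84 and 8.90, lay close to the Aβ42 arrays. Nol6, Nol7 and Utp3 did not pass in any comparison, and Utp23 passed only as higher when Aβ42 was added to AE1-329 (0.21 ± 0.06, 0.0226), not without replicate 1 or 2 of AE1-329 (0.0943 and 0.0796) or replicate 2 or 3 of both agents (0.0747 and 0.0757).

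**Figure D2:**
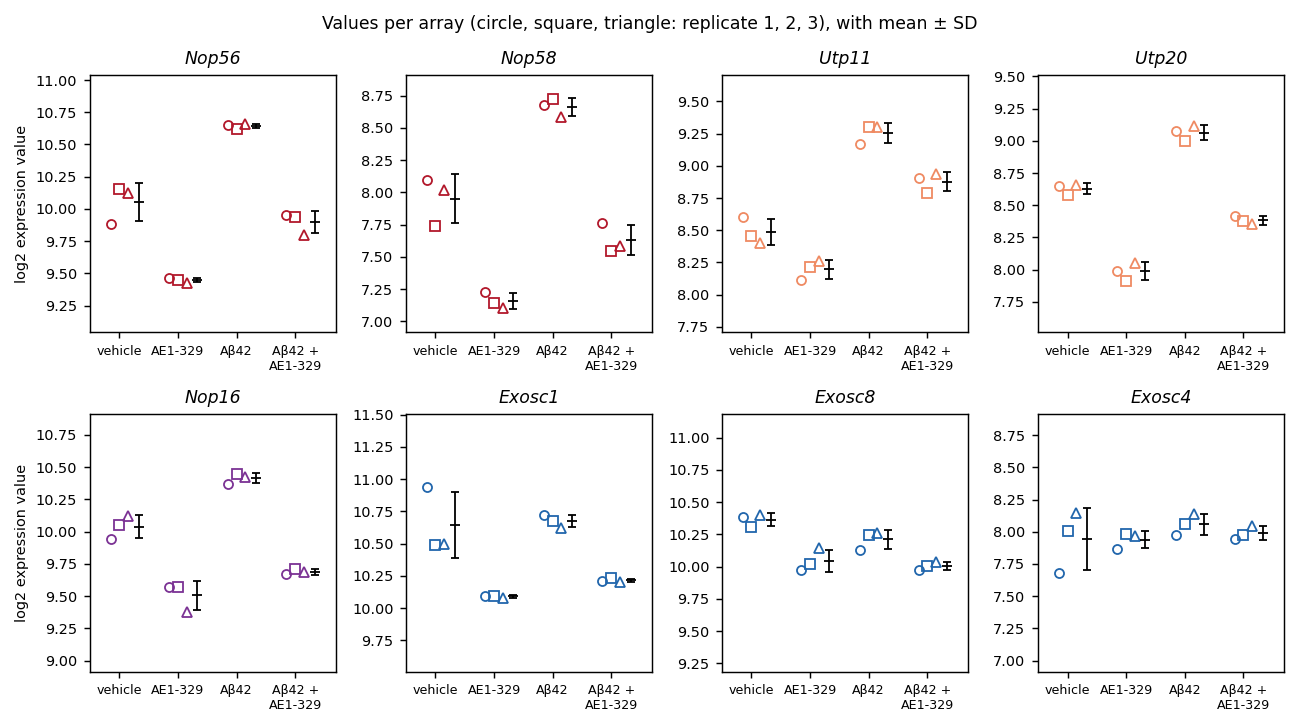
Log2 expression values of 8 of the genes on each of the 12 arrays, with a separate vertical axis for each gene that spans the same width; black bars give the mean ± SD of the 3 arrays of a group. The order AE1-329, both, vehicle, Aβ42 from low to high is seen in Nop58, Utp20 and Nop16, both lies above vehicle in Utp11, and Exosc4 shows no separation.

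Of the 6 factors of the large subunit, 4 rose with Aβ42, 3 fell with AE1-329 alone and 4 fell when it was added to Aβ42. When Aβ42 was added to AE1-329, 3 rose and 1 fell. Of all genes, 10.7% rose, 5.45% fell, 5.04% fell, and 9.77% rose and 12.2% fell in the same order of comparisons. Nop16 read 9.94, 10.05 and 10.12 with vehicle, 9.57, 9.57 and 9.38 with AE1-329, 10.37, 10.45 and 10.43 with Aβ42, and 9.67, 9.71 and 9.68 with both. All 4 groups were apart. Nop16, a nucleolar protein of early large-subunit particles, rose by 0.38 ± 0.06 with Aβ42 (0.000605). It fell by 0.53 ± 0.06 with AE1-329 alone (0.000144), by 0.73 ± 0.06 when it was added to Aβ42 (9.94e-06) and by 0.35 ± 0.06 with both against vehicle (0.00129).

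Nop2, a methyltransferase of large-subunit RNA that is also known as a proliferation antigen, read 9.41, 9.56 and 9.54 with vehicle, 9.13, 9.14 and 9.002 with AE1-329, 9.92, 9.94 and 9.93 with Aβ42, and 9.40, 9.35 and 9.31 with both. The Aβ42 arrays lay above all others. Nop2 rose by 0.43 ± 0.06 with Aβ42 (8.95e-05) and by 0.26 ± 0.06 on top of AE1-329 (0.00451), and fell by 0.41 ± 0.06 with AE1-329 alone (0.000501) and by 0.58 ± 0.06 when it was added to Aβ42 (3.15e-05). Nol9, a kinase that acts on the ends of cut precursor RNA, rose by 0.43 ± 0.06 (0.00022) and fell by 0.46 ± 0.06 (0.000403) in the comparisons that involve Aβ42 alone. Nol12, an exonuclease-related protein, rose by 0.34 ± 0.06 (0.00100) and fell by 0.27 ± 0.06 (0.0112) in the same ones, the fall not without Aβ42 replicate 3 (0.0608).

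Nop53, which ties the exosome to precursors of the large subunit, was the member of this set on the other side. It read 10.47, 10.57 and 10.61 with vehicle, 10.82, 10.71 and 10.72 with AE1-329, 10.45, 10.50 and 10.37 with Aβ42, and 10.50, 10.52 and 10.67 with both. AE1-329 alone gave the highest arrays, and the change against vehicle of 0.20 ± 0.06 missed the threshold (0.0651). The fall when Aβ42 was added to AE1-329, of 0.19 ± 0.06, passed narrowly (0.0494) and was lost with the replicate block (0.0553) and in 12 of the 19 alternatives, with adjusted p from 0.0516 to 0.186 in these, among them each omission of an AE1-329 or Aβ42 array, of vehicle replicate 2 and of replicate 1 or 2 of both agents. Nol8 was lower on all AE1-329 arrays (7.95, 7.97 and 8.09) than on all vehicle arrays, but vehicle replicate 1 read 8.95 beside 8.13 and 8.28, and none of its changes passed without the replicate block. With the block its fall with both against vehicle passed (-0.41, 0.0492 against 0.0774). Without vehicle replicate 2 it passed as lower with AE1-329 alone (-0.61, 0.0158) and with both against vehicle (-0.57, 0.0108). Without vehicle replicate 1 Nol8 passed as higher with Aβ42 (0.20, 0.0275, against -0.05 with it) and as lower when AE1-329 was added to Aβ42 (-0.37, 0.000877).

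Of the 9 exosome subunits, 5 fell with AE1-329 alone and 5 when it was added to Aβ42, where 5.45% and 5.04% of all genes fell. With Aβ42 alone 2 rose, where 10.7% of all genes rose. When Aβ42 was added to AE1-329, 0 rose, Exosc7 fell and 2 were higher at an unadjusted p under 0.05. Of all genes 9.77% rose and 12.2% fell there. In either direction 22.2% and 11.1% of the 9 passed in the last 2 comparisons, against 25.6% and 22.0% of all genes. These 2 counts do not set the exosome apart. The median changes were -0.22, -0.18, 0.03 and 0.10. Exosc1, Exosc2 and Exosc3 form the RNA-binding cap. Exosc1 read 10.94, 10.49 and 10.50 with vehicle, 10.10, 10.10 and 10.08 with AE1-329, 10.72, 10.68 and 10.62 with Aβ42, and 10.21, 10.23 and 10.21 with both. The arrays with AE1-329, alone or with Aβ42, were all below the others. Exosc1 fell by 0.55 ± 0.10 with AE1-329 alone (0.00215), by 0.46 ± 0.10 when AE1-329 was added to Aβ42 (0.00678) and by 0.43 ± 0.10 with both against vehicle (0.00521). With Aβ42 alone it changed by 0.03 ± 0.10. This value was 0.18 and passed without vehicle replicate 1 (0.00983), and it was -0.04 without vehicle replicate 2 or 3.

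Exosc2 alone among the cap genes rose with Aβ42 (0.25 ± 0.06, 0.0101). It read 8.11, 8.18 and 8.31 with vehicle, 7.98, 7.90 and 7.86 with AE1-329, 8.47, 8.46 and 8.42 with Aβ42, and 7.99, 8.09 and 7.94 with both. The groups with AE1-329 lay below vehicle and the Aβ42 group above it. Exosc2 fell by 0.44 ± 0.06 when AE1-329 was added to Aβ42 (0.000528) and by 0.29 ± 0.06 with AE1-329 alone (0.0113, or 0.0543 without AE1-329 replicate 3). Exosc3 did not pass, with -0.23 ± 0.10 for AE1-329 alone and -0.09 ± 0.10 for AE1-329 on Aβ42, and its second probe set did not pass either. Without vehicle replicate 2, which at 6.52 was the lowest vehicle array, Exosc3 passed as lower with AE1-329 alone (-0.36, 0.00729).

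In the ring, Exosc7 and Exosc8 fell and Exosc4, Exosc5 and Exosc9 did not pass. Exosc8 read 10.39, 10.31 and 10.40 with vehicle, 9.98, 10.02 and 10.14 with AE1-329, 10.13, 10.25 and 10.26 with Aβ42, and 9.97, 10.01 and 10.03 with both. Vehicle was highest, and the Aβ42 arrays were below it. Exosc8 fell by 0.32 ± 0.06 with AE1-329 alone (0.00365) and by 0.36 ± 0.06 with both against vehicle (0.000533). With Aβ42 alone it changed by -0.15 ± 0.06 (0.0849). Its fall when AE1-329 was added to Aβ42, of 0.21 ± 0.06 (0.0400), was lost without AE1-329 replicate 2 (0.0586), Aβ42 replicate 2 (0.139) or 3 (0.152), or replicate 1 (0.138), 2 (0.0988) or 3 (0.0811) of both agents.

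Exosc7 read 7.62, 7.54 and 7.70 with vehicle, 7.41, 7.36 and 7.42 with AE1-329, 7.49, 7.56 and 7.51 with Aβ42, and 7.14, 7.30 and 7.22 with both. The arrays with both agents were the lowest. Exosc7 fell by 0.30 ± 0.06 when AE1-329 was added to Aβ42 (0.00413) and by 0.40 ± 0.06 with both against vehicle (0.000177). Its fall with AE1-329 alone, of 0.22 ± 0.06 (0.0267), was lost without vehicle replicate 3 (0.0803) or AE1-329 replicate 1 (0.0688), 2 (0.105) or 3 (0.0631). Its fall when Aβ42 was added to AE1-329, of 0.18 ± 0.06 (0.0428), was lost in 11 of the 19 alternatives, among them the omission of any AE1-329 or Aβ42 array and of replicate 1 or 3 of both agents, with adjusted p from 0.0552 to 0.190.

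Exosc4 gave -0.01 with AE1-329 alone, with a 95% interval from -0.22 to 0.20, and Exosc5 gave -0.02, with an interval from -0.23 to 0.20. Both intervals include a fall of the size seen for Exosc10 and leave out that of Exosc8. When AE1-329 was added to Aβ42, Exosc4 changed by -0.07 ± 0.10, Exosc5 by -0.11 ± 0.10 and Exosc9 by -0.04 ± 0.09. Exosc9, at -0.17 ± 0.09 with AE1-329 alone, passed there without vehicle replicate 2 (-0.28, 0.0256). Exosc6 was not analysed here.

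Exosc10, the exonuclease that the nuclear exosome carries, read 10.85, 10.89 and 10.85 with vehicle, 10.74, 10.65 and 10.67 with AE1-329, 11.00, 10.96 and 11.07 with Aβ42, and 10.82, 10.86 and 10.81 with both. Its groups were apart by small steps, except that both agents and vehicle overlapped. It rose by 0.15 ± 0.05 with Aβ42 (0.0487, and 0.0586 with the replicate block), and fell by 0.17 ± 0.05 with AE1-329 alone (0.0428) and by 0.18 ± 0.05 when it was added to Aβ42 (0.0374). These calls were lost in 16, 13 and 9 of the 19 alternatives. The first was lost whichever of the 12 arrays was left out, the second stood only without vehicle replicate 1 among the omissions of an array, and the third was lost without AE1-329 replicate 2 or 3 or any array of the groups compared, with adjusted p from 0.0515 to 0.188 where a call was lost. Dis3, the other nuclease of the nuclear exosome, fell by 0.39 ± 0.08 with AE1-329 alone (0.00671, or 0.0605 with only those groups in the fit), and with Aβ42 alone it changed by 0.15 ± 0.08, which did not pass (0.218).

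The 3 genes that share only the Nol name moved differently. Nol4l rose when AE1-329 was added to Aβ42, from 8.95, 8.86 and 8.95 to 9.33, 9.25 and 9.23, and vehicle and AE1-329 alone gave 8.94, 8.59 and 8.83 and 8.99, 8.82 and 8.95. The arrays with both agents were above all others. The rise was 0.35 ± 0.08 against Aβ42 (0.0134), 0.35 ± 0.08 against AE1-329 (0.00681) and 0.48 ± 0.08 against vehicle (0.00068). The first was lost without Aβ42 replicate 2 (0.0606) or replicate 1 of both agents (0.0622). Nol4, named for a nucleolar protein, rose by 0.19 ± 0.06 with Aβ42 (0.0288) on the probe set used, while its other probe sets gave 0.09 and 0.01, and the mean of the 3 did not pass (0.31). That call was also lost without vehicle replicate 1 (0.0577) or 3 (0.0641) or Aβ42 replicate 1 (0.0760) or 2 (0.0978). Nol3, a repressor of apoptosis with a caspase recruitment domain, did not pass in any comparison. Without these 3 genes the counts were 16 of 34 higher with Aβ42, 18 lower with AE1-329 alone, and 21 lower when AE1-329 was added to Aβ42. Of all genes 10.7%, 5.45% and 5.04% passed in those directions.

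The interaction, which is the test of whether the change with AE1-329 differs with and without Aβ42, passed for 0 of the 37 genes in limma, where 1.95% of all genes passed (1.03% above and 0.918% below 0), and in each of the 18 alternatives in which it could be fitted. At an unadjusted p under 0.05 it was below 0 for 3 of them. The median was -0.09, against -0.0015 over all genes, and 27 of the 37 lay below 0, against 10074 of all 19938 genes. For Nop58 it was -0.24, with a 95% interval from -0.51 to 0.04, for Utp20 -0.04, from -0.21 to 0.13, and for Exosc1 0.09, from -0.20 to 0.38. The change with AE1-329 alone and the change when it was added to Aβ42 come from different arrays of the same litters. Across the 37 genes they had Pearson's r of 0.899 and Spearman's rho of 0.862, and across all 19938 genes 0.574 and 0.447. For the change with Aβ42 without and with AE1-329 the values were 0.870 and 0.849 across the 37 genes and 0.894 and 0.723 across all genes, so that the 37 were below all genes by r and above them by rho. Genes are not independent replicates, and these figures describe how alike the 2 sets of values are.

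**Figure D3:**
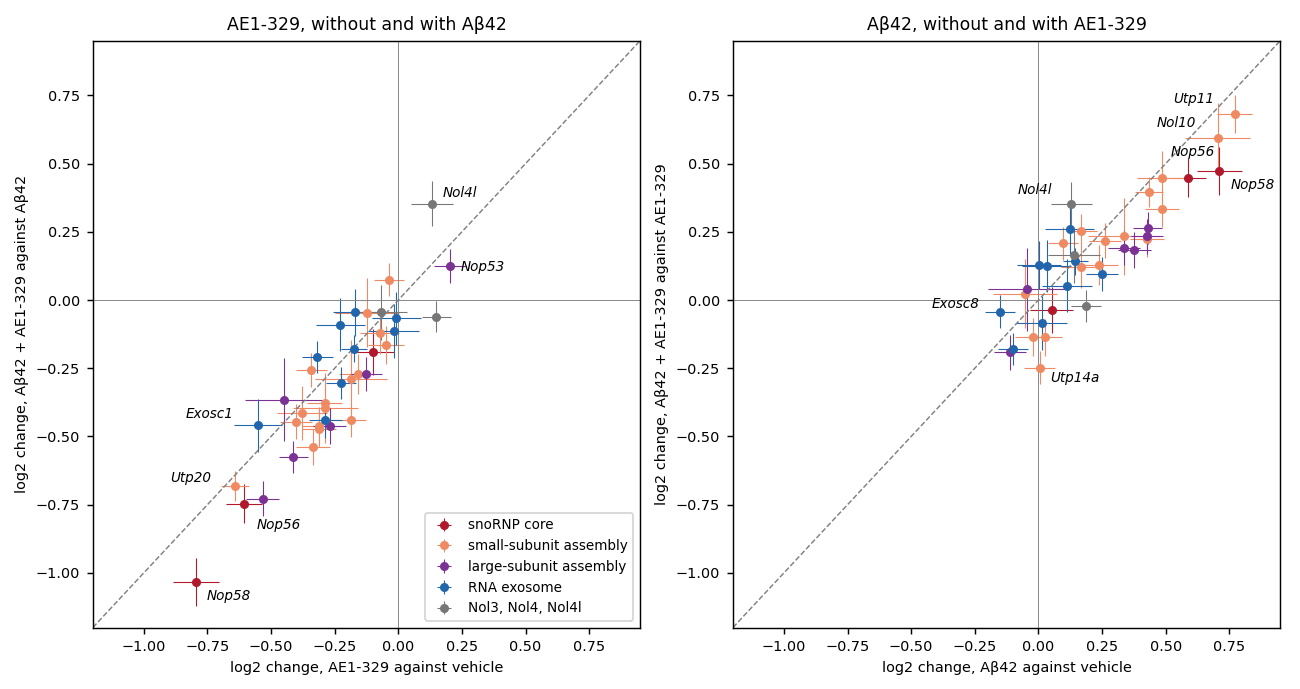
Each point is a gene of the 37, with bars for the standard error, coloured by role. The left panel sets the log2 change with AE1-329 added to Aβ42 against the change with AE1-329 alone. The right panel sets the change with Aβ42 on top of AE1-329 against that with Aβ42 alone, and the dashed line marks equal changes. SnoRNP and assembly genes spread along the line, most of them somewhat below it. On the left, exosome genes run from near 0, as for Exosc4 and Exosc5, to well below it, as for Exosc1. On the right most of them lie near 0, with Exosc2 and Exosc3 further out.

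The other genes of the pathway, from lists of known factors, were counted in the same way. Of all genes, 10.7% rose and 14.8% fell with Aβ42, and 5.45% fell with AE1-329 alone. When AE1-329 was added to Aβ42, 5.04% of all genes fell. When Aβ42 was added to AE1-329, 9.77% rose and 12.2% fell. Of 37 further small-subunit genes, 18 rose with Aβ42, 20 fell with AE1-329 alone, 26 fell when AE1-329 was added to Aβ42, and 11 rose and 2 fell when Aβ42 was added to AE1-329. Wdr43, a partner of Utp4 and Utp15, rose by 0.68 ± 0.06 with Aβ42 (1.43e-06) and fell by 0.74 ± 0.06 when AE1-329 was added (4.26e-06). Tsr1, which shields the maturing small subunit, fell by 0.86 ± 0.07 in the latter (8.24e-06). Heatr1, a further partner of Utp4, was lowered by Aβ42 in the presence of AE1-329 (-0.44 ± 0.06, 0.000118) and passed for the interaction (-0.46 ± 0.09, 0.0132).

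Of 43 further large-subunit genes, 31 rose with Aβ42, 24 fell with AE1-329 alone, 32 fell and 1 rose when AE1-329 was added to Aβ42, and 19 rose and 1 fell when Aβ42 was added to AE1-329. Gnl3, or nucleostemin, a nucleolar GTPase, fell by 0.81 ± 0.07 with AE1-329 alone (8.68e-06) and by 0.97 ± 0.07 when it was added to Aβ42 (1.86e-06). Gtpbp4, another such GTPase, rose by 0.84 ± 0.06 with Aβ42 (1.48e-07). Tma16 was the exception, raised by 1.55 ± 0.07 with Aβ42 (5.3e-09) and by a further 0.43 ± 0.07 when AE1-329 was added (0.00225), with an interaction of 0.49 ± 0.11 (0.0308). The interaction of Tma16 was lost without vehicle replicate 3, any AE1-329 array, Aβ42 replicate 1 or 3, or replicate 1 or 3 of both agents (0.0584 to 0.0896).

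The 15 genes of RNA polymerase I and its factors split with Aβ42, where 4 rose and 3 fell, and 6 fell with AE1-329 alone and 4 when it was added to Aβ42. Polr1a and Polr1b, the large catalytic subunits, fell by 0.73 ± 0.06 each in the latter (6.11e-06 and 7.6e-06), and Rrn3, the factor that links polymerase I to its promoter, rose by 0.49 ± 0.06 with Aβ42 (2.65e-05). Of 14 other snoRNP factors 2 rose with Aβ42 and 7 fell with AE1-329 alone. Of 6 abundant nucleolar proteins 3 rose with Aβ42 and 3 fell with AE1-329 alone. Ddx21, a nucleolar helicase, rose by 0.55 ± 0.05 with Aβ42 (2.09e-06) and fell by 0.75 ± 0.05 when AE1-329 was added (8.01e-07), and Nolc1, a chaperone of snoRNPs, by 0.28 ± 0.06 (0.00217) and 0.62 ± 0.06 (1.27e-05). Ncl and Npm1, the most abundant proteins of the nucleolus, did not pass with Aβ42 (-0.04 ± 0.10 and -0.24 ± 0.15), although Npm1 passed as lower without vehicle replicate 2 (-0.44, 0.0144).

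The nucleases and cofactors of the exosome numbered 17, of which 4 rose with Aβ42, 2 fell with AE1-329 alone and 3 fell when it was added to Aβ42. When Aβ42 was added to AE1-329, 5 rose. In that order 23.5%, 11.8%, 17.6% and 29.4% of the list passed, against 25.6%, 10.2%, 11.0% and 22.0% of all genes in either direction. These shares lie nearer to those of all genes than the shares of the assembly lists do. Tent4a, a poly(A) polymerase that tags RNAs for the exosome, rose by 0.98 ± 0.08 with Aβ42 (5.63e-07) and fell by 0.65 ± 0.08 when AE1-329 was added (0.00011). Hbs1l, which helps to release stalled ribosomes, rose by 0.41 ± 0.05 with Aβ42 (4.96e-05).

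The genes of the ribosome's own proteins, a list added after the values were seen, had medians near 0, but most leaned to the same side in some comparisons. With AE1-329 alone 45 lay above 0 and 8 below, against 8920 and 11018 of all genes. When Aβ42 was added to AE1-329, 4 lay above 0 and 49 below, against 10667 and 9271 of all genes. There 1 had groups apart as higher and 19 as lower, against 19.4% and 20.7% of all genes. Of 53, 2 rose with Aβ42, 0 passed with AE1-329 alone, 1 fell when AE1-329 was added to Aβ42 and 0 passed when Aβ42 was added to AE1-329. In limma, 4 had an unadjusted p under 0.05 with AE1-329 alone and 2 when Aβ42 was added to it. Their medians were 0.0022, 0.08, 0.02 and -0.06. The 2 that rose were Rpl24 (0.36 ± 0.11, 0.0258), not without any 1 of the Aβ42 arrays (0.0527 to 0.0856), and Rps15a (0.30 ± 0.10, 0.0399), lost in 9 of the 19 alternatives (0.0521 to 0.183), among them without vehicle replicate 1, AE1-329 replicate 3, Aβ42 replicate 1 or 3 and any array of both agents. The fall was that of Rpl12 (-0.50 ± 0.12, 0.0198), lost without Aβ42 replicate 1 or 3 or replicate 2 or 3 of both agents (0.0582 to 0.0970). Ribosomal protein genes have near-identical copies elsewhere in the genome, so the values of their probe sets are uncertain.

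**Figure D4:**
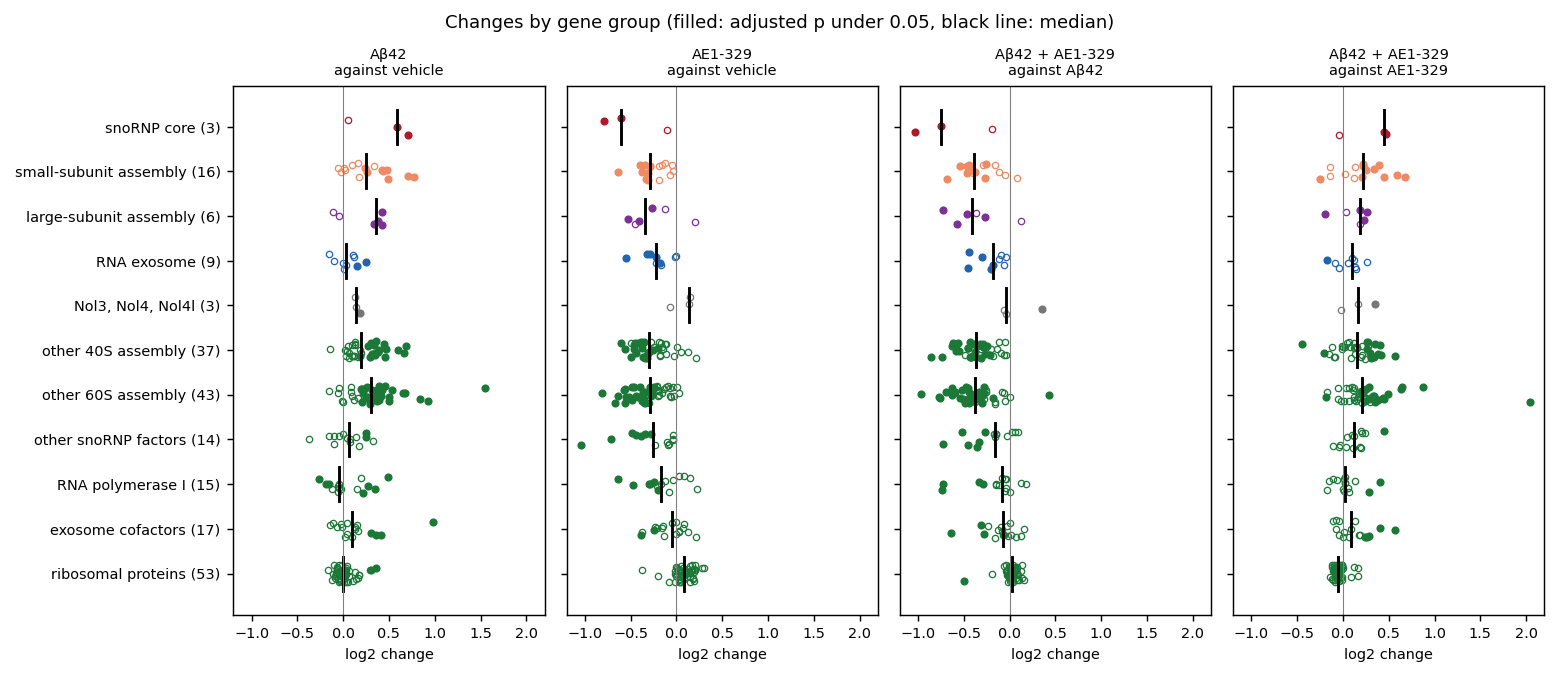
Log2 changes of single genes in 4 comparisons, a row for each gene group with its number of genes in brackets; filled points passed at an adjusted p under 0.05, open points did not, and black lines are medians. Assembly genes inside and outside the 37 shift right with Aβ42 and left with AE1-329, and ribosomal protein genes lie around 0; the green point at the far right is Tma16.

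Myc, the gene of the transcription factor, read 9.07, 9.16 and 9.47 with vehicle, 8.29, 8.25 and 8.19 with AE1-329, 9.87, 9.82 and 9.90 with Aβ42, and 9.41, 9.20 and 9.26 with both. The arrays with both overlapped with vehicle and the other groups stood apart. Myc rose by 0.63 ± 0.09 with Aβ42 (0.000149), fell by 0.99 ± 0.09 with AE1-329 alone (1.42e-05) and by 0.57 ± 0.09 when it was added to Aβ42 (0.00106). Mxi1, a MAX partner that opposes MYC, went the other way. It fell by 1.09 ± 0.06 with Aβ42 (1.44e-08) and rose by 1.42 ± 0.06 with AE1-329 alone (2.37e-08) and by 1.97 ± 0.06 when AE1-329 was added to Aβ42 (1.65e-09). Over the 10 genes of the MYC network measured, 2 rose and 5 fell with Aβ42, where 10.7% of all genes rose and 14.8% fell. With AE1-329 alone 3 rose and 1 fell, where 4.71% rose and 5.45% fell. When AE1-329 was added to Aβ42, 3 rose and 2 fell, where 5.99% rose and 5.04% fell. With both agents against vehicle Mxi1 was 0.88 ± 0.06 higher (1.06e-07). Mnt, of the same network, was 0.50 ± 0.06 lower there (2.01e-05), and Myc did not pass (0.06 ± 0.09, 0.774). Whether Myc or Mxi1 had a part in the changes of the 37 genes was not tested.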

How the data were processed

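The authors deposited a table of log2 values for 12 arrays, with each probe set on a line. Per the submitters' processing notes RMA and Partek 6.5 were used, with no role stated; RMA commonly equalizes the distributions of the arrays. A change is thus measured against the other genes of the array. The values ran from 2.79 to 13.95. No source used here gives filters or the genome build. The number of arrays limits the precision, and signal over background is unknown.

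Groups and replicate numbers came from the labels. Of 35556 probe sets, 21789 had 1 gene symbol, 1621 several and 12146 none, and 21698 of the first kind were matched by gene ID in a RefSeq table of GRCm38.p6 used for names. Exosc6 and Utp14b lay only on probe sets with several symbols and were not analysed here. Group means were fitted to all 12 arrays and 19938 genes with limma 3.58.1 in R 4.3.3 (lmFit, then eBayes, with 4.54 prior degrees of freedom beside 8 residual ones), with two-sided p adjusted by Benjamini-Hochberg within a comparison, without a filter on dim genes. The fit was tested on simulated data. Of the 37 genes, 7 (Nop58, Nol10, Utp3, Utp23, Exosc3, Exosc7 and Nol3) were not above the array median on all arrays.

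The 37 genes, their roles and the lists were chosen with earlier results of these data known. Any of the 37 could be named; per comparison up to 6 highest and 6 lowest that passed are given in full, with all exosome subunits in the comparison with most calls, and, outside the 37, up to 2 genes a list, direction and comparison with the smallest p, and Myc, Fbl, Ncl, Npm1, Nolc1 and Dis3. Beside the 13 lists, the ribosomal protein genes and the comparison of both agents with vehicle were added after the values were seen.

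Alternatives were genes above the median level only, a mean over the probe sets of each gene, all probe sets tested, quantile normalization again, a robust prior with a mean-variance trend, the replicate block, only the groups compared, and each array left out. The pairing of same-numbered arrays comes from the design text, which ties replicates to litters. Over 18 same-numbered pairs the deviations from group means had a mean r of 0.33 (0.0044 to 0.54, 17 over 0.1), and each of the 12 arrays was closest to its own number. The p-values of the fit without the block stand in the text, with those of the block where it changes a call.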

Additional observations from a re-analysis of the deposited data

Results flagged for a closer look

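The change with AE1-329 differed with and without Aβ42, by the interaction term of the limma fit, for 4 genes named beside the 37 and for none of the 37. Of all genes 1.95% passed, a share so small that none among 37 does not set these apart. Genes outside the 37 could be named for a small p in any comparison, the interaction included, so that the 4 passed is no separate result. Mxi1 rose by 1.42 with AE1-329 alone and by 1.97 on Aβ42, an interaction of 0.55 (adjusted p = 0.00322, higher on all 3 treated arrays in both settings). Heatr1 had an interaction of -0.46 (0.0132). Tma16 had an interaction of 0.49 (0.0308), which several omissions of an array given above removed, and Mki67, a proliferation marker, of 0.61 (0.0286). The last was lost without vehicle replicate 1, AE1-329 replicate 1, any Aβ42 array, or replicate 2 or 3 of both agents (0.0505 to 0.0853). Their part in the changes of the 37 genes was not tested.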

How the results depend on the processing

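Of the 85 calls of the 37 genes, 59 kept their direction and side of the threshold in all 19 alternatives, and 0 reversed. By comparison these were 14 of 17 for Aβ42 alone, 10 of 18 for AE1-329 alone, 15 of 22 for AE1-329 added to Aβ42, 11 of 18 for Aβ42 added to AE1-329 and 9 of 10 for both against vehicle. Counts that moved were 1 in place of 0 lower with Aβ42 alone (genes above the median level, or quantile normalization again), 1 in place of 0 higher with AE1-329 alone (genes above the median level, or the trend with a robust prior), 10 in place of 18 lower with AE1-329 alone (only the groups compared) and 1 in place of 3 lower for Aβ42 added to AE1-329 (all probe sets). With each array left out, 0 to 1 were higher for AE1-329 added to Aβ42, 1 to 3 lower for Aβ42 added to AE1-329, and with both against vehicle 2 to 4 were higher and 7 to 14 lower. Values that changed sign without passing in the full fit were Nol8 with Aβ42 (-0.21 to 0.20 with an array left out, above 0 without vehicle replicate 1), Exosc1 with Aβ42 (-0.045 to 0.18, below 0 without vehicle replicate 2 or 3), Nop9 with both against vehicle (-0.19 to 0.18, below 0 without vehicle replicate 1) and Exosc5 there (-0.25 to 0.018, above 0 without vehicle replicate 3). The cause was not tested. Over all genes, AE1-329 alone called 970 in place of 2026 genes with only the groups compared, and the interaction 677 in place of 389 with the replicate block and down to 246 with an array left out.

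The replicate block changed these calls, with adjusted p with the block in place of that without: Exosc10 (0.0586 for 0.0487) and Utp6 (0.0442 for 0.0599) with Aβ42, Utp14a (0.0395 for 0.0751) with AE1-329, Nop10 (0.0177 for 0.217) and Nol10 (0.0410 for 0.0729) with AE1-329 added to Aβ42, Nop53 (0.0553 for 0.0494) with Aβ42 added to AE1-329, and Nol8 (0.0492 for 0.0774) with both against vehicle. It changed no other call of the 37 genes. With 3 arrays a group, small steps such as those of Exosc10 lie at the limit of what could be called.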
